A study of Mus musculus with 4 samples.

Results

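The 10 Krüppel-like factor genes Klf2, Klf3, Klf4, Klf6, Klf7, Klf9, Klf10, Klf11, Klf13 and Klf15 were examined by name among the 21951 protein-coding genes of the mouse annotation, for peaks of RNA polymerase II (Pol II) in chromatin immunoprecipitation sequencing at their transcription start sites (TSS), in their gene bodies and within 50 kb. The data were 4 libraries from flow-sorted brain endothelial cells (ECs), with 2 libraries of old WT Cre, aged 20 to 23 mo, and 2 libraries of young EC-K4KO, aged 4 to 6 mo. Old WT Cre mice carry the VE-cadherin Cre driver (Cdh5, genotype CdH5CRE in the labels), and young EC-K4KO mice (ECK4KO) carry it together with floxed Klf4. Tamoxifen, which triggers the Cre, was given at 8 wk to control and knockout mice alike, on the C57BL/6J background. The driver is active in endothelium generally and not in brain vessels alone. Age and genotype differed together between the groups, so their parts in any difference cannot be told apart. Whether a library came from 1 animal or from pooled animals is not given in the sources used here.

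KLF proteins share a zinc finger domain at the C-terminus that binds GC-rich and CACCC sequences, and they differ in the N-terminal parts that recruit cofactors. KLF2 and KLF4 are induced in endothelium by laminar flow through the MEKK3, MEK5, ERK5 and MEF2 cascade, and they maintain anticoagulant and anti-inflammatory gene expression. Members that bind CtBP (KLF3) or Sin3 (KLF9, KLF10, KLF11, KLF13) are mostly known as repressors, while KLF6 and KLF7 are mostly known as activators.

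No Klf gene had a promoter peak, defined as a called peak within 1500 bp of any annotated TSS, in all 4 libraries. Klf2 and Klf3 carried one in both libraries of old WT Cre, and Klf4, Klf9 and Klf11 had one in both young EC-K4KO libraries. Replicate 2 of young EC-K4KO had one at 10 of the 10 genes, where 67.5% of all protein-coding genes had one. Each of the other libraries had one at 2 or 3 of the 10, where the share over all genes was 25.6% and 24.5% for old WT Cre and 10.6% for replicate 1 of young EC-K4KO. Over all protein-coding genes, a promoter peak was present at 10.1% in both old WT Cre libraries, at 9.14% in both young EC-K4KO libraries and at 2.22% in all 4 libraries. With so few genes, 2 or 3 of 10 in a pair of libraries is a description of these genes, and no test was made of the counts.

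Of 6 places where peaks of different libraries coincided at a promoter, the sequences of 5 are shown, all but that at an internal TSS of Klf3 described further on, because they mark the bases that more than 1 library recovered (GRCm38/mm10, RefSeq assembly, each written 5′ to 3′ on the strand of its gene, GC boxes GGGCGG and CACCC boxes CCACCC on either strand in capitals). The Klf2 region, common to both old WT Cre libraries and replicate 2 of young EC-K4KO, is chr8:72319305-72319501 on the plus strand and runs from the first intron into 76 bp of coding sequence. The Klf3 region of both old WT Cre libraries is chr5:64802714-64802843 upstream of the gene on the plus strand. The regions of both young EC-K4KO libraries are chr19:23140868-23141103 upstream of Klf9 and chr12:24650963-24651226 upstream of Klf11, both on the plus strand. The Klf13 region of replicate 2 of old WT Cre and replicate 2 of young EC-K4KO is chr7:63939384-63939537 upstream of the gene on the minus strand.
Klf2: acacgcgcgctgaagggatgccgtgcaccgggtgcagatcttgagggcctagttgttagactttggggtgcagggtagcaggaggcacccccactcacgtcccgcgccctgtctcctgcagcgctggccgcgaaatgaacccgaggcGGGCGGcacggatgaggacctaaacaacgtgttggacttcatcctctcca
Klf3: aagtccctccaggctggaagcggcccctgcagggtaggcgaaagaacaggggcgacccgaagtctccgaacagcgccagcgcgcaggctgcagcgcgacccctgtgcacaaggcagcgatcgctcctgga
Klf9: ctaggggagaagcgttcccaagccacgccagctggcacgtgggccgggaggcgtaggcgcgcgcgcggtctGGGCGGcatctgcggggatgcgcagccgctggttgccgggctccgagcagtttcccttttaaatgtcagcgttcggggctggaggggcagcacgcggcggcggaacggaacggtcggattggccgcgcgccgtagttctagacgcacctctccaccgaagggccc
Klf11: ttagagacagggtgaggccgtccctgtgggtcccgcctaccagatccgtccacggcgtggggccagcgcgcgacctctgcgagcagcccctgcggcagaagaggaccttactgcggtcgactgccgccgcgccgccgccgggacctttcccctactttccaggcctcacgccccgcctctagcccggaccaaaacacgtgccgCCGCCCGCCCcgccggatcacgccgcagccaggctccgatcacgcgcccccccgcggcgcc
Klf13: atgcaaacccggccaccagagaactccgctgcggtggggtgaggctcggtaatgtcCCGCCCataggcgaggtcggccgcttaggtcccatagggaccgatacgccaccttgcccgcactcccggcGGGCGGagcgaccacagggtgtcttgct

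At Klf4 the promoter peaks of the young EC-K4KO libraries did not overlap, so the 101 bp centred on each summit are shown, together with the only part of the Klf4 gene that libraries of both groups recovered. The summit windows are chr4:55533411-55533511, upstream of the TSS (replicate 1), and chr4:55531218-55531318, in an intron (replicate 2), and the part recovered in both groups is chr4:55530486-55530614, in coding exon 3. All are written on the minus strand, on which Klf4 lies, with capitals as above.
Klf4 upstream: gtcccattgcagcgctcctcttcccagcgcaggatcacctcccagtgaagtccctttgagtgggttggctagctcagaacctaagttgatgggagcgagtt
Klf4 intron: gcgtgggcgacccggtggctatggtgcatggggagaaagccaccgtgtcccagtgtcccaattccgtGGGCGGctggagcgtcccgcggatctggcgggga
Klf4 exon 3: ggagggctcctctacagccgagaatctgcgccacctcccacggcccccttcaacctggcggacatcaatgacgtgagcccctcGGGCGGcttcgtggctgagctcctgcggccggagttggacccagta

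Of these 8 regions, 6 held a GC box, and the Klf3 and upstream Klf4 regions held none. The letters are common, since 23% of 101 bp windows and 42.6% of 264 bp windows at the summit of the tallest promoter peak of a protein-coding gene in replicate 2 of young EC-K4KO held a GC box. No CACCC box was found in the 8 regions, against 15.1% and 31.8% of those windows. The regions of Klf9 and Klf11 were the richest in CpG, with 31 CpG in 236 bp and 35 in 264 bp, where the medians of promoter summit windows of those lengths were 15 and 17. The upstream Klf4 region was the poorest, with 3 CpG in 101 bp against a median of 7.

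Promoter windows of RefSeq (GRCm38.p6), from 250 bases before to 50 after the start, were matched for 9 of the 10 genes, all but Klf10. Their GC content ran from 58.3% to 77.7%, with a median of 72.0%, and 6 of the 9 lay above the upper quartile of 16522 protein-coding promoters (64.7%, median 57%). A GC box was present in 8 of 9, all but Klf9, against 48.0% of all promoters, and a CACCC box in 4 of 9 (Klf2, Klf3, Klf7 and Klf13) against 33.4%. None of the 9 held TATAAA (12.9% of all promoters), the CRE TGACGTCA (2.43%) or the ETS core CCGGAAG (12.3%) on either strand. The MEF2 box CTANNNNTAG, which is palindromic, was found in 3.41% of all promoters and, among the 9, in Klf2 alone. It began 89 bp before the annotated start of Klf2, and since MEF2 factors are known regulators of Klf2 in endothelium, the 221 bases before the start are shown (chr8:72318812-72319032, plus strand, with the MEF2 box alone in capitals).
Klf2 promoter: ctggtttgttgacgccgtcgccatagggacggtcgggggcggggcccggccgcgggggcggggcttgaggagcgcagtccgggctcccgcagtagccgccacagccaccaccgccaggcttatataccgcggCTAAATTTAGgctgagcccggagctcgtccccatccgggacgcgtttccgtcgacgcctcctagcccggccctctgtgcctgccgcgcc

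The pileup of a peak, the number of fragments over its summit, is given here in FPM, fragments per 1000000 fragments of its library, and the fold enrichment is the ratio of the peak caller to the local background of the same library. The libraries held 22705175 to 65734178 fragments. The tallest peak alone had 14.6% and 15.3% of them over its summit in old WT Cre, against 3.36% and 1.73% in young EC-K4KO. The totals behind FPM thus held more such fragments in old WT Cre. Replicate 2 of young EC-K4KO had the fewest fragments and the most peaks, 235591, against 35638 to 78851 in the others. Its median tallest promoter pileup was 0.837 FPM, against 0.319 to 0.473 in the others, so its values stood apart for promoters in general and not for Klf genes alone. A missing peak is a pileup that was not called. The lowest called pileups were 0.198 and 0.291 FPM for old WT Cre and 0.255 and 0.308 for young EC-K4KO. Of 12 endothelial marker genes, 5, 5, 0 and 7 had a promoter peak, with old WT Cre given before young EC-K4KO and replicate 1 before replicate 2. These are shares of 41.7%, 41.7%, 0% and 58.3%, above the share of all genes in both old WT Cre libraries and below it in both young EC-K4KO libraries, and Pecam1, Tek, Tie1 and Esam had none in any library. In the same order, promoter peaks were present at 3, 1, 2 and 5 of 7 pericyte and smooth muscle markers, at 0, 2, 1 and 5 of 7 neuron markers and at 2, 1, 1 and 3 of 6 astrocyte markers. For 6 oligodendrocyte lineage markers the counts were 1, 2, 1 and 5, and for 6 microglia markers 3, 1, 0 and 5. In both young EC-K4KO libraries the endothelial share was thus not above that of most other lists, and with 6 to 12 genes a list no test was made of these shares. The part of these marker counts in the Klf results was not tested.

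**Figure D1:**
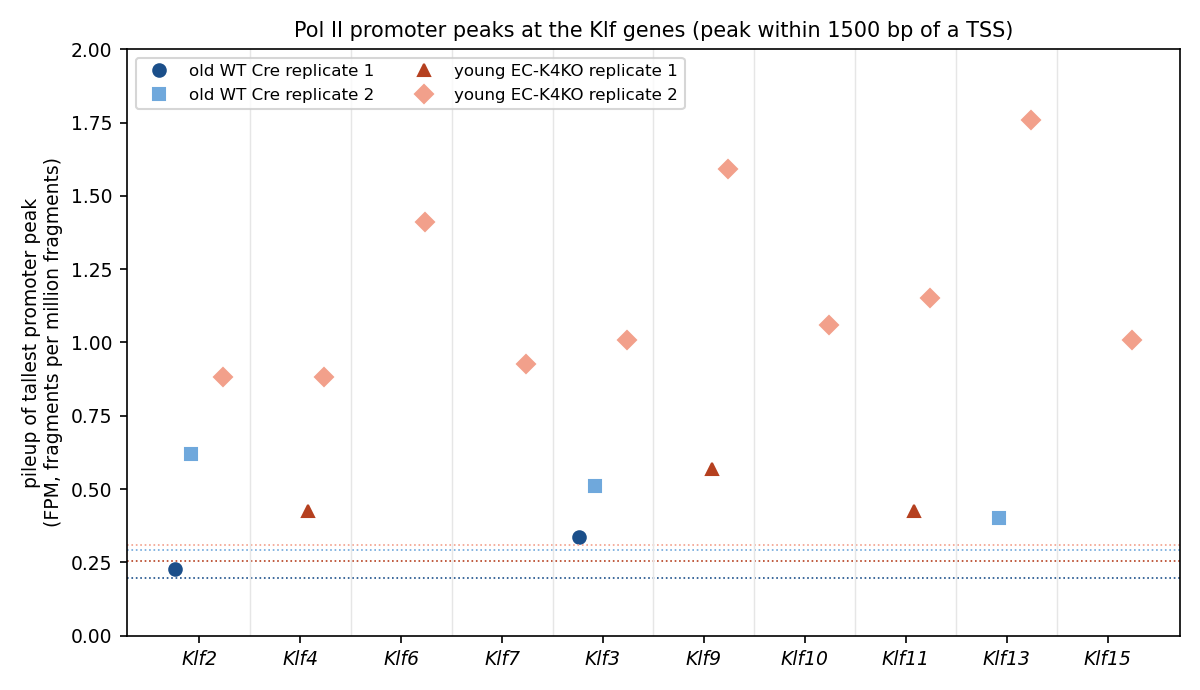
Pileup at the summit of the tallest peak within 1500 bp of a TSS (FPM, linear axis) for each Klf gene, 1 symbol per library that had a peak; dotted lines mark the lowest pileup called in each library. Replicate 2 of young EC-K4KO has a symbol at 10 genes, from 0.881 to 1.76, above every symbol of the other libraries, whose highest is 0.619 at Klf2.

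Among the activators, Klf2 (chromosome 8, 72319033 to 72321656, plus strand), the flow-responsive factor that maintains endothelial quiescence, had the same promoter region called in 3 libraries. The pileup was 15 fragments (0.228 FPM) in replicate 1 of old WT Cre, 17 (0.619) in replicate 2 of old WT Cre and 20 (0.881) in replicate 2 of young EC-K4KO, and no peak was called in replicate 1 of young EC-K4KO. The fold enrichments were 2.72, 4.68 and 4.74 in the same order, so the peak of replicate 1 of old WT Cre was close to the calling limit and lay at percentile 3.86 of that library's promoter pileups. All 3 summits lay downstream of the TSS, at 302, 162 and 376 bp, all in the first intron. Peaks in exactly these 3 libraries were found at 7.00% of protein-coding genes, Klf3 included. The ratio of replicate 2 of young EC-K4KO to the mean of both old WT Cre libraries was 2.08. Leaving out replicate 2 of old WT Cre it was 3.86, and leaving out replicate 1 of old WT Cre it was 1.42. Its size thus depended on both old WT Cre libraries. Divided by each library's median promoter peak pileup the 3 values were 0.714, 1.31 and 1.18, and on that scale replicate 2 of young EC-K4KO lay between the old WT Cre libraries. At q of at most 1e-05 the peak of replicate 1 of old WT Cre was lost.

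Klf4 (chromosome 4, 55527143 to 55532466, minus strand) is the gene targeted in EC-K4KO and a flow-responsive factor like Klf2. Within 1500 bp of its TSS, replicate 1 of young EC-K4KO had a peak of 15 fragments (0.426 FPM, fold enrichment 4.20) and replicate 2 of young EC-K4KO a peak of 20 fragments (0.881 FPM, 4.17), while neither old WT Cre library had one. Peaks in exactly the young EC-K4KO pair were found at 3.12% of protein-coding genes. The peaks of the pair lay on opposite sides of the TSS, with summits 995 bp upstream and 1198 bp downstream, and shared no base. They therefore count as 1 gene called in both replicates but not as 1 region, and with a window of 500 bp neither remained.

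Inside the Klf4 gene, in coding exon 3, replicate 1 of old WT Cre had a peak of 18 fragments (0.274 FPM, fold enrichment 3.12) and replicate 2 of young EC-K4KO a peak of 26 fragments (1.15 FPM, 5.67). The summits lay 1908 and 1909 bp from the TSS and thus differed by 1 bp, a position called in a library of each group. Replicate 2 of young EC-K4KO had a further peak of 17 fragments (0.749 FPM) in coding exon 5 at 4229 bp. With 3000 bp in place of 1500 bp, or with the TSS of the comprehensive annotation, whose extra Klf4 starts lie 13 and 696 bp into the gene, replicate 1 of old WT Cre counted as having a Klf4 promoter peak too. Presence in the young EC-K4KO pair alone thus depended on the window and on the annotation. It also depended on the calling limit. At q of at most 1e-05 the promoter peak of replicate 1 was lost. With every list limited to its 35638 peaks of highest −log10 q, that of replicate 2 was lost. Pol II peaks do not measure the Klf4 transcript, and which exons the floxed allele removes is not given in the sources used here, so the peaks do not check the genotype labels. Reads at exon 3 in replicate 2 of young EC-K4KO were DNA recovered from that exon, from whichever cells of the preparation carried it.

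**Figure D2:**
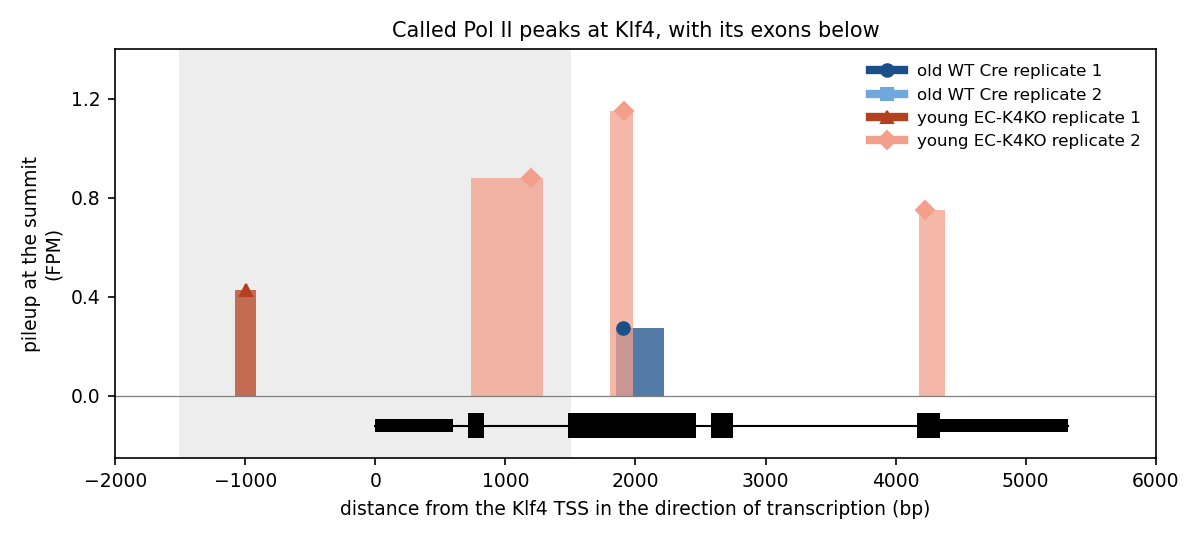
Called peaks at Klf4 by distance from its TSS in the direction of transcription (bp), with bars spanning each peak, bar height and symbols giving the pileup at the summit (FPM), the exons drawn below (tall blocks coding) and the 1500 bp window shaded. Inside the gene, the peaks of replicate 1 of old WT Cre and replicate 2 of young EC-K4KO stand at the same position in exon 3, 0.274 and 1.15 FPM, while the young EC-K4KO promoter peaks stand apart on either side of the TSS.

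By the rule for genes most like Klf4, 3 protein-coding genes of the 684 others with a promoter peak in exactly the young EC-K4KO pair had the same pileups as Klf4 in both libraries. They were Kl, Tfpi and Tub, each with 0.426 and 0.881 FPM, a sum of absolute log2 ratios of 0.00 over 2 libraries.

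Klf6 (chromosome 13, 5861482 to 5870394, plus strand), known for its induction after vascular injury, had a promoter peak in replicate 2 of young EC-K4KO alone. It held 32 fragments (1.41 FPM, fold enrichment 8.15) with a summit 351 bp upstream of the TSS, at percentile 93.9 of that library's promoter pileups. No peak was called within 50 kb of Klf6 in replicate 1 of either group, and 2 were called in replicate 2 of old WT Cre, both near a TSS of the gene 1700016G22Rik. Klf7 (chromosome 1, 64029447 to 64122282, minus strand), known for its role in axon growth, likewise had promoter peaks in replicate 2 of young EC-K4KO alone. The taller held 21 fragments (0.925 FPM, fold enrichment 8.39), with its summit 867 bp upstream of the TSS of the basic annotation and near a further start of the comprehensive annotation, which lies 791 bp upstream. Peaks in replicate 2 of young EC-K4KO alone were found at 30.5% of protein-coding genes, and among the Klf genes at Klf6, Klf7, Klf10 and Klf15.

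Klf3 (chromosome 5, 64803388 to 64832901, plus strand), the CtBP-binding repressor, had promoter peaks in 3 libraries but at different places. The tallest held 22 fragments (0.335 FPM, fold enrichment 4.32) in replicate 1 of old WT Cre, 14 (0.510, 5.59) in replicate 2 of old WT Cre and 23 (1.01, 7.1) in replicate 2 of young EC-K4KO, and replicate 1 of young EC-K4KO had none. The summits of the old WT Cre libraries lay 840 and 587 bp upstream, in overlapping peaks (with a window of 500 bp that of replicate 1 was no longer counted, so the call shared by the pair ended), while the tallest of replicate 2 of young EC-K4KO lay 188 bp downstream, in the first exon, and did not overlap them. The TSS of the noncoding genes C230096K16Rik and Gm20033 also lie within 1500 bp, and the 2 sets of peaks cannot be assigned to 1 gene. The ratio of replicate 2 of young EC-K4KO to the old WT Cre mean was 2.40 in FPM and 1.27 after division by each library's median promoter peak pileup.
At a second TSS of Klf3, inside the gene, the smaller promoter peaks of replicate 2 of old WT Cre (9 fragments, 0.328 FPM) and replicate 2 of young EC-K4KO (15 fragments, 0.661) overlapped, with summits 582 and 624 bp upstream of that TSS. Klf3, Klf11 and Klf13 each had 5 regions in the gene and 50 kb flanks that more than 1 library recovered, the most among the 10 genes.

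Among the Sin3-binding repressors, Klf9 (chromosome 19, 23141226 to 23168134, plus strand), an early target of glucocorticoid and thyroid hormone receptors, had overlapping promoter peaks in both young EC-K4KO libraries. They held 20 fragments (0.568 FPM, fold enrichment 5.04) in replicate 1 and 36 (1.59, 8.61) in replicate 2, with summits 317 and 252 bp upstream of the TSS. These lay at percentiles 90.7 and 97.2 of the promoter pileups of their own libraries, and neither old WT Cre library had a peak within 3000 bp of the TSS. At q of at most 1e-05 Klf9 was the only Klf gene that kept a promoter peak in both young EC-K4KO libraries, as 2.66% of all protein-coding genes did. In replicate 1 of old WT Cre Klf9 had 2 peaks in the gene body, of 21 fragments each (0.319 FPM), 14944 and 23521 bp from the TSS, the second in coding exon 2.

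Klf11 (chromosome 12, 24651274 to 24662789, plus strand), a TGF-beta-inducible repressor, showed the same arrangement as Klf9. The promoter peak held 15 fragments (0.426 FPM, fold enrichment 3.69) in replicate 1 of young EC-K4KO and 26 (1.15, 5.99) in replicate 2 of young EC-K4KO, with summits 270 and 221 bp upstream. No old WT Cre library had a peak within 1500 bp, but replicate 1 of old WT Cre had one of 25 fragments (0.380 FPM, 4.40) in coding exon 2, 2409 bp from the TSS. It counted as a promoter peak with 3000 bp or with the comprehensive annotation, so for Klf11 as for Klf4 the difference between groups depended on the window. With a fold enrichment of at least 4 the peak of replicate 1 of young EC-K4KO was lost, and Klf11 no longer counted in the pair. Klf10 (chromosome 15, 38291463 to 38300706, minus strand), the other TGF-beta-inducible member, had 3 promoter peaks, all in replicate 2 of young EC-K4KO. The taller pair held 24 fragments each (1.06 FPM, fold enrichments 4.10 and 4.23), with summits 38 and 1041 bp upstream of the TSS.

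Klf13 (chromosome 7, 63886351 to 63938915, minus strand), known from lymphocytes as an activator of chemokine expression as well as a repressor, had the highest promoter pileup of the 10 genes. Replicate 2 of young EC-K4KO had 4 promoter peaks, the tallest of 40 fragments (1.76 FPM, fold enrichment 6.85) 530 bp upstream of the TSS, at percentile 98.6 of that library. Replicate 2 of old WT Cre had 2, of 11 fragments (0.401 FPM, 3.41) in an intron and of 10 (0.364, 3.22) 487 bp upstream of the TSS. The upstream peaks overlapped, with summits 43 bp apart. At q of at most 1e-05 those of replicate 2 of old WT Cre were lost, and replicate 1 of old WT Cre and replicate 1 of young EC-K4KO had none. A peak in exactly replicate 2 of old WT Cre and replicate 2 of young EC-K4KO was found at 10.5% of protein-coding genes.
Klf15 (chromosome 6, 90462576 to 90475238, plus strand), a metabolic regulator under glucocorticoid and circadian control, had 1 promoter peak, in replicate 2 of young EC-K4KO, of 23 fragments (1.01 FPM, fold enrichment 4.40). Its summit lay 91 bp upstream of an internal TSS, and no library had a peak within 1500 bp of the first one. The noncoding gene Gm44117 starts within 1500 bp of a Klf15 TSS.

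**Figure D3:**
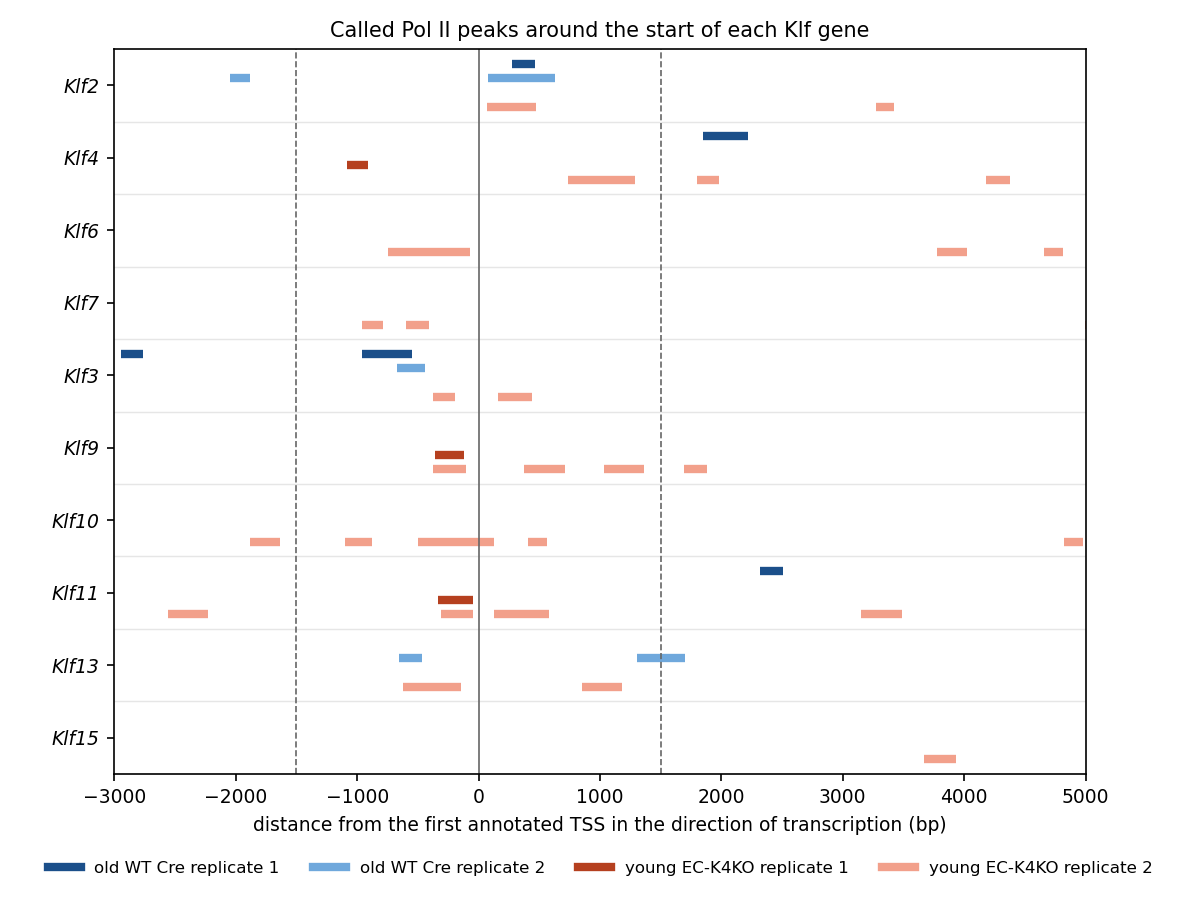
Called peaks (bars from peak start to peak end) between 3000 bp before and 5000 bp after the first TSS of each Klf gene, in the direction of transcription, with 1 row per library; dashed lines stand 1500 bp on either side of the TSS. Bars of 2 or more libraries stand over each other at Klf2, Klf3, Klf9, Klf11 and Klf13 within the dashed lines and at Klf4 in exon 3 beyond them.

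Side by side per library, promoter peaks were found at 2 of the 10 Klf genes in replicate 1 of old WT Cre (25.6% of all protein-coding genes), 3 in replicate 2 of old WT Cre (24.5%), 3 in replicate 1 of young EC-K4KO (10.6%) and 10 in replicate 2 of young EC-K4KO (67.5%). Within 3000 bp the counts were 4 (33.8%), 3 (28.4%), 3 (14.1%) and 10 (77.0%). Here 1 gene is worth 10 percentage points of the Klf genes. With every list limited to its 35638 peaks of highest −log10 q, replicate 2 of young EC-K4KO had promoter peaks at 6 Klf genes (27.7% of all protein-coding genes at that length), the others at 1 (11.8%), 2 (22.6%) and 3 (10.6%). It then lacked Klf2, Klf4, Klf10 and Klf15, and Klf9 and Klf11 were the genes left in both young EC-K4KO libraries (5.23% of all genes).
The tallest promoter peak had its summit upstream of the nearest TSS at 1 of 2, 2 of 3, 3 of 3 and 7 of 10 Klf genes in the 4 libraries, where the share over all genes with a promoter peak was 36.2%, 32.4%, 43.6% and 37.4%. In replicate 2 of young EC-K4KO the 7 upstream summits (Klf6, Klf7, Klf9, Klf10, Klf11, Klf13 and Klf15) lay from 38 to 867 bp before the nearest TSS. In that library the summit lay downstream at Klf2, Klf3 and Klf4.

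Gene body peaks, outside 1500 bp of any TSS, were present at 6 of the 10 genes in replicate 1 of old WT Cre (Klf3, Klf4, Klf7, Klf9, Klf11 and Klf13, 49.7% of protein-coding genes with such a body), at 3 in replicate 2 of old WT Cre (Klf3, Klf7 and Klf13, 35.1%), at 0 in replicate 1 of young EC-K4KO (27.7%) and at 9 in replicate 2 of young EC-K4KO (73.3%). The peaks numbered 12, 3, 0 and 33. Per 100 kb of gene body this was 5.40, 1.35, 0 and 14.8, and over all protein-coding genes 3.36, 1.55, 1.24 and 9.82. Klf7, the longest member at 92.8 kb, had 13 body peaks in replicate 2 of young EC-K4KO and 1 in each old WT Cre library. The Klf7 peak of replicate 2 of old WT Cre in coding exon 2 (20 fragments, 0.728 FPM, fold enrichment 7.83) overlapped a peak of replicate 2 of young EC-K4KO (12 fragments, 0.529), and the old WT Cre value was the higher there. The noncoding gene Gm13748 has a TSS within 1500 bp of it. In Klf13, peaks in an intron of replicate 1 of old WT Cre and replicate 2 of young EC-K4KO, both of 18 fragments (0.274 and 0.793 FPM), had summits 5 bp apart, next to a TSS of Gm27252.

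**Figure D4:**
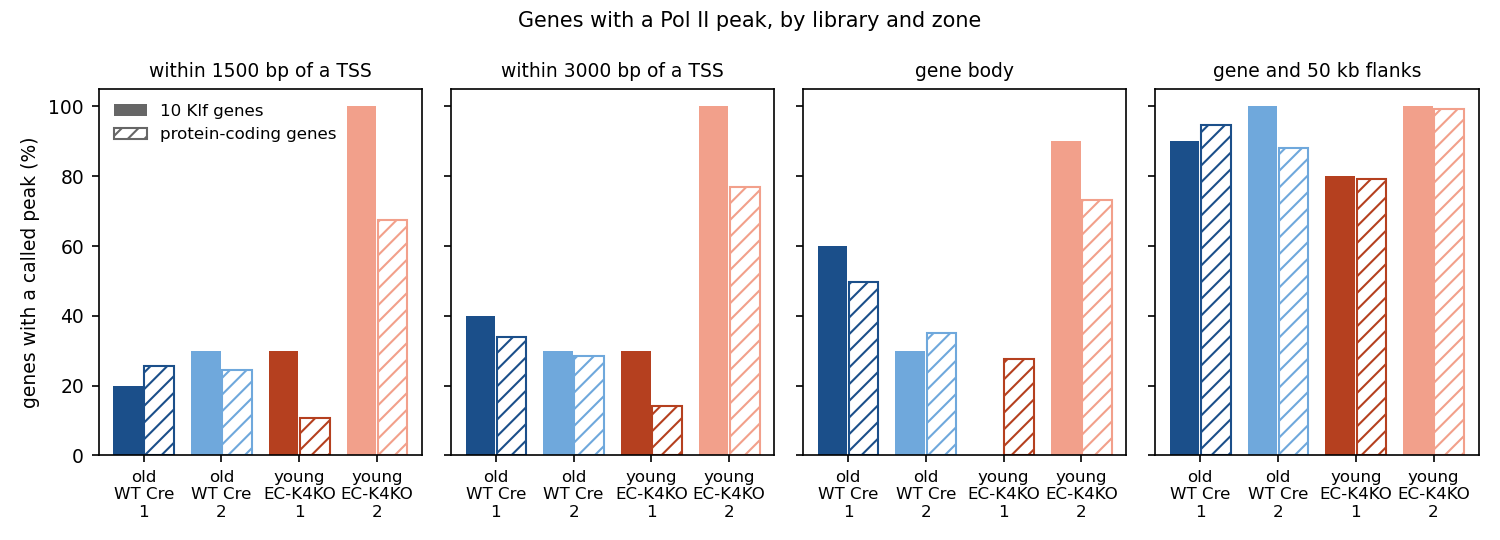
Share of genes with at least 1 called peak (%), by library, for the 10 Klf genes (filled bars) and for protein-coding genes (hatched bars), in 4 zones. The filled bars of replicate 1 of young EC-K4KO stand at 3 of 10 genes for both TSS windows and at 0 for the gene body, where the hatched bar is 27.7%.

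Within 50 kb of the gene, a peak was present at 9 Klf genes in replicate 1 of old WT Cre (94.8% of protein-coding genes), 10 in replicate 2 of old WT Cre (88.2%), 8 in replicate 1 of young EC-K4KO (79.1%) and 10 in replicate 2 of young EC-K4KO (99.2%), so this measure hardly separates genes. The median density was 4.59, 1.79, 1.27 and 13.0 peaks per 100 kb for the Klf genes and 3.88, 1.92, 1.07 and 12.8 for all protein-coding genes. The members differed among themselves, from 6.43 per 100 kb at Klf6 to 24.2 at Klf11 in replicate 2 of young EC-K4KO. In replicate 1 of old WT Cre Klf3 was the densest, at 9.27, and in replicate 1 of young EC-K4KO it was Klf15, at 5.33.
Places at which peaks of different libraries overlapped, or were joined by a peak of another library, numbered 29 around the 10 genes. Of these, 24 were seen in 2 libraries, 5 in 3 and 0 in 4, and such places were not counted around other genes. Around Klf4, replicate 1 of old WT Cre and replicate 1 of young EC-K4KO both had a peak about 10.7 kb upstream of the TSS, with 23 fragments (0.350 FPM) and 13 fragments (0.369 FPM). Replicate 2 of old WT Cre and both young EC-K4KO libraries had peaks 17.2 to 17.6 kb downstream of it, of 17, 13 and 18 fragments (0.619, 0.369 and 0.793 FPM). These flanking peaks lay within 1500 bp of no annotated TSS, and no gene was assigned to them.

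**Figure D5:**
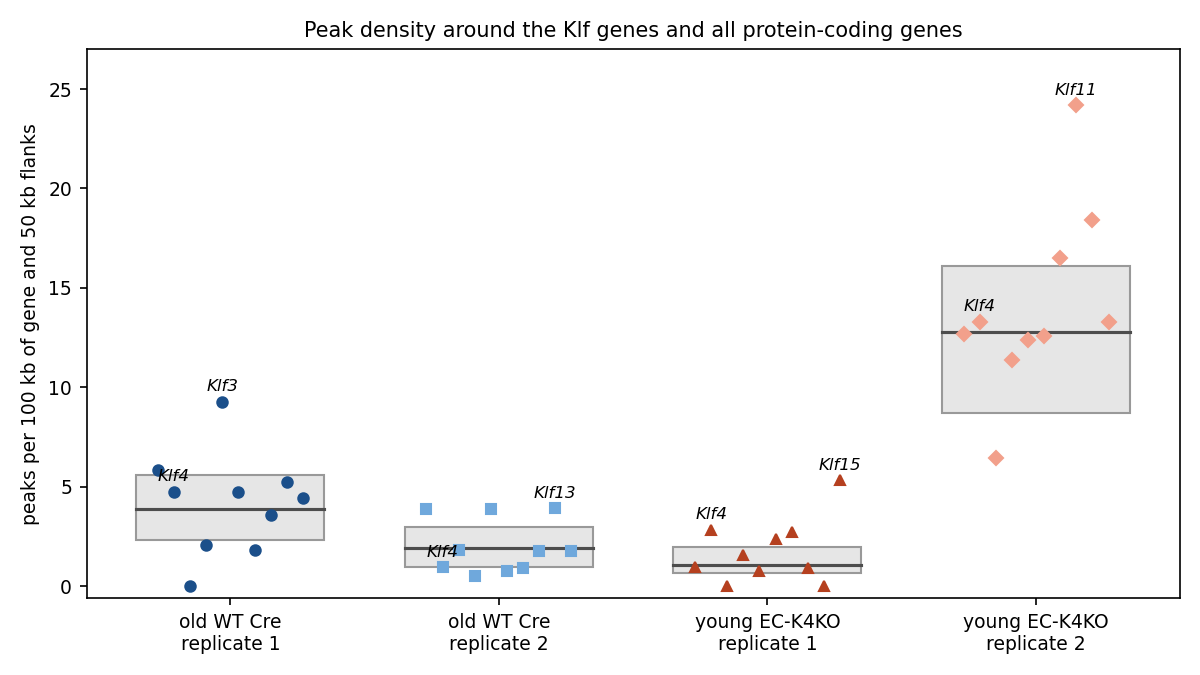
Called peaks per 100 kb of gene and 50 kb flanks for each Klf gene (symbols, in the order of the plot of promoter pileups) in each library; grey boxes span the quartiles of all protein-coding genes and the line is their median. Most symbols lie in or near the box of their library, with Klf11 (24.2) and Klf3 (9.27) highest in replicate 2 of young EC-K4KO and replicate 1 of old WT Cre.

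The other 16 KLF and Sp genes, chosen by family, had promoter peaks at 3, 4, 2 and 14 genes in the 4 libraries, and Klf17 had none in any. Their shares, 18.8%, 25%, 12.5% and 87.5%, stood against 25.6%, 24.5%, 10.6% and 67.5% of all protein-coding genes. Sp4 and Sp6 carried one in both libraries of old WT Cre (0.365 and 0.546 FPM for Sp4, 0.380 and 0.801 for Sp6) and in replicate 2 of young EC-K4KO (1.98 and 1.15), the pattern of Klf2 and Klf3. Sp5 (0.397 and 1.10) and Klf12 (0.284 and 0.925) had one in the young EC-K4KO pair alone. Of 10 genes of the cascade that induces KLF2 and KLF4 (MEKK3 to MEF2, and the CCM complex that restrains MEKK3), 4, 2, 0 and 10 had a promoter peak (40%, 20%, 0% and 100%), none of them in both libraries of either group. Of 13 endothelial genes known as targets of KLF2 or KLF4, 4, 2, 2 and 11 had one (30.8%, 15.4%, 15.4% and 84.6%). The shares of all genes in the single libraries are those given for the KLF and Sp genes, and no test was made of these counts. Ocln, a tight junction protein gene, had one in all 4 libraries (0.335, 1.02, 0.511 and 0.969 FPM), as 2.22% of all protein-coding genes did. The adhesion molecule genes Sele and Vcam1 had none in any. Icam1, also an adhesion molecule gene, had one in replicate 2 of young EC-K4KO (0.837 FPM). The share of all genes with none in any library is not given here.

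The planned comparison of promoter pileups between groups, a two-sided exact permutation test of 2 libraries against 2 for genes with a promoter peak in all 4 libraries, could not be made for any Klf gene. It could have given no p below 0.3333. In pooled cells, fewer cells with Pol II at a gene and less Pol II per cell cannot be told apart.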

How the data were processed

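Pol II peaks of 4 libraries, 2 per group, were described at 10 Klf genes. According to the study's methods, the authors trimmed paired reads, mapped them by Bowtie2 to the mm10 genome, discarded PCR duplicates and ran MACS2. Version 2.2.7.1 of MACS stands in the headers of the deposited tables, with a q cutoff of 0.01, no control library and each library called alone. The deposited values are the pileup (a coverage signal in fragments), the fold enrichment (a ratio to local background) and −log10 of the p-value and q-value, none of them normalized between libraries. The deposited narrow peak and summit lists repeat these positions and were not used.

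Pileups were expressed here in FPM, per 1000000 fragments of the header. TSS, exons and gene bodies came from the GENCODE M21 basic annotation, and sequences from the RefSeq GRCm38 assembly and promoter table, of which all 658 windows compared were identical to the assembly. Scripts ran in Python 3.11.15 with pandas 2.3.3 and numpy 2.4.6, samtools 1.23.1 and matplotlib; the promoter calls were checked on planted peaks. A peak counted at a TSS if it overlapped the 1500 bp on either side, and 3000 bp, 500 bp, stricter q, a fold enrichment of 4 and lists of equal length were alternatives. Pileups of 7 to 40 fragments carry counting error of their own, and fragments may include copies of 1 molecule. The members and gene lists were chosen with earlier results of these data known. All 10 members were named. Of the gene lists, genes with a promoter peak in all 4 libraries were named, and for other KLF and Sp genes those with none. Genes shared by both libraries of a group, absent target and marker genes, Icam1, and the sequences other than the Klf4 summits were chosen after their values were seen.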

Additional observations from a re-analysis of the deposited data

How the results depend on the processing

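Of 78 recomputed values, 58 stayed and 20 moved, that is by over 1.5 times for a count or by over the spread of the old WT Cre libraries for a ratio. The ratios for Klf2 and Klf3 stayed above 1 at every setting, and a single count has no direction. The cause was not tested, except that stricter lists hold fewer peaks and that 1 library in place of a pair can raise a count but not lower it. Shares in brackets are of all protein-coding genes at the same setting. At q of at most 1e-05, promoter peaks were left at 1 Klf gene in replicate 1 of old WT Cre (15.1%), at 1 in replicate 1 of young EC-K4KO (3.34%), at 1 in both old WT Cre libraries (Klf3, 3.77%) and at 1 in both young EC-K4KO libraries (Klf9, 2.66%), gene body peaks at 1 in replicate 2 of old WT Cre (22.8%), and peaks within 50 kb at 4 in replicate 1 of young EC-K4KO (41.0%). A fold enrichment of at least 4 left 1 in replicate 1 of old WT Cre (11.7%) and 1 in both old WT Cre libraries (4.57%). Lists of equal length left 1 (11.8%) and 1 (4.74%) in the same places, and 6 promoter (27.7%) and 5 gene body genes (31.8%) in replicate 2 of young EC-K4KO. With 500 bp, 1 was left in replicate 1 of old WT Cre (18.3%) and 1 in both old WT Cre libraries (Klf2, 6.74%). With 3000 bp replicate 1 of old WT Cre had 4 (33.8%), and with the comprehensive annotation, chosen after seeing the data, 4 as well (33.0%). Replicate 1 of young EC-K4KO had 3 in both settings (14.1% and 13.9%). The order of these libraries was thus reversed, since at 1500 bp they had 2 (25.6%) and 3 (10.6%). Leaving out 1 library, the count was 2 to 3 for old WT Cre and 3 to 10 for young EC-K4KO, where the 10 is replicate 2 of young EC-K4KO alone. The ratio of replicate 2 of young EC-K4KO to the old WT Cre mean, added after seeing the data, was 2.40 for Klf3 and moved to 1.27 over the median promoter peak pileup and to 1.43 for fold enrichment, but there it sets peaks side by side that share no base. For Klf2 it was 2.08, and 1.16 and 1.28 on the same scales, a fall of over 1.5 times that is smaller than the spread of the old WT Cre libraries. With the fragments of each library's tallest peak taken off its total, the ratio was 1.8 for Klf2 and 2.07 for Klf3. Without each old WT Cre library in turn it was 1.42 to 3.86 for Klf2 and 1.99 to 3.03 for Klf3. No paired analysis was possible because no Klf gene had a promoter peak in all 4 libraries, so no test with the replicate number could be made. With 13, 8, 9 and 7 fragments as the lowest pileups called, an absent peak does not show absent Pol II.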
